A study of Mus musculus with 41 samples.

Results

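The genes described here are 6 transcription factor genes of mouse microglia, the resident macrophages of the brain: Mitf, Tfeb, Tfec and Tfe3, which make up the MiT/TFE family, and the related repressors Bhlhe40 and Bhlhe41. They were chosen by symbol, with no measured value in the rule but with earlier results of these data known. They are 6 of the 24537 genes in the count table, 4 of them in the MiT/TFE family and 2 in the Bhlhe pair. All animals were C57Bl6 mice, and no genotype or other treatment was given for them. Microglia were sorted by flow cytometry and either lysed at once (ex vivo, 5 RNA libraries) or plated in DMEM/F12 medium with serum, where IL34, a ligand of the CSF1 receptor, was added daily and the medium was not changed. Cultured cells were taken after 6 h (2 libraries), 24 h (3 libraries, of which replicate 2 is labelled 22 h) and 7 d, the last either with IL34 and TGFβ (2 libraries) or with IL34 alone (5 libraries). Unsorted brain lysate gave 4 further poly(A) RNA libraries. Open chromatin (ATAC-seq) and the active mark H3K27ac were mapped ex vivo and after 7 d (replicate 2 of the 7 d ATAC libraries is labelled 8 d), and H3K4me2 and the macrophage factor PU.1 were mapped ex vivo. All cultures contained serum, IL34 and plastic contact together, so these cannot be told apart. The labels give neither ages nor animal numbers and do not tie libraries to separate mice, so the p-values cover the spread between libraries, which may be technical.

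MiT/TFE proteins bind short E-box-like motifs as dimers with each other and switch on genes for lysosomal enzymes, the lysosomal proton pump and autophagy. When nutrients are plentiful, mTORC1 phosphorylates them at the lysosome, through the Rag GTPases and folliculin, and holds them in the cytoplasm, so that their activity is set largely after transcription. Bhlhe40 and Bhlhe41 bind the E-box CACGTG as repressors, feed back on the circadian clock and, in macrophages, repress genes that MiT/TFE factors and other activators use. RNA levels alone therefore do not show the activity of either group.

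RNA libraries held between 11.6 M and 28.8 M counts (M, 1e6). Marker sums are given in CPM (counts per 1e6 counts) of each library's total counts. Gene levels in the later paragraphs are in CPM scaled by the trimmed mean of M values. The 8 microglial marker genes summed to 41542 to 49459 CPM in ex vivo libraries and to 3795 to 3944 CPM after 6 h. They summed to 4333 to 4610 CPM after 24 h. After 7 d it was 15893 to 17618 CPM with TGFβ and 7047 to 10724 CPM without it. Neuronal markers stayed at or below 17.7 CPM in sorted and cultured cells, against 6756 to 8350 CPM in lysate. Astrocyte markers summed to 170 to 366 CPM ex vivo and to at most 19.8 CPM in culture. The 6 oligodendrocyte markers summed to 88.0 to 222 CPM ex vivo and to 24.8 to 71.5 CPM in culture. The 4 markers of oligodendrocyte precursors summed to 0.561 to 2.83 CPM ex vivo and to 72.4 to 80.2 CPM at 6 h. At 24 h the sum was 6.37 to 8.69 CPM. At 7 d it was 124 to 350 CPM with TGFβ and 0.579 to 19.5 CPM without it, against 215 to 303 CPM in lysate. With TGFβ, Pdgfra, Olig1 and Olig2 were at 0, so that sum rests on the remaining marker. The 6 markers of macrophages at the brain's borders summed to 7.65 to 116 CPM ex vivo, 2.07 to 4.81 CPM at 6 h, 1.08 to 2.65 CPM at 24 h, 8.53 to 8.54 CPM at 7 d with TGFβ and 54.8 to 120 CPM at 7 d without it. The 5 neutrophil markers summed to 3.37 to 182 CPM ex vivo and to at most 9.75 CPM in culture. Of the 5 markers of melanocytes, another cell type that uses Mitf, the 4 genes Tyr, Dct, Mlana and Tyrp1 were at 0 in every sorted or cultured group. The part of these marker differences in the results below was not tested.

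Tfe3 and Tfeb, the broadly expressed members of the family, were higher early in culture, and at 7 d their ranges overlapped those of ex vivo libraries. Tfe3 was read at 263, 240.0, 249, 295 and 292 CPM in ex vivo libraries, at 473 and 511 CPM after 6 h, at 330.1, 363 and 330.0 CPM after 24 h and at 266, 191, 224, 261 and 294 CPM after 7 d. Both 6 h libraries lay above every other library, and the 7 d range overlapped the ex vivo range. In edgeR's quasi-likelihood test over 13840 genes, Tfe3 rose 1.84-fold at 6 h (log2 change 0.88 ± 0.14 SE, adjusted p = 4.32e-05) and 1.27-fold at 24 h (0.35 ± 0.13, adjusted p = 0.0269). The 24 h call was lost without 24 h replicate 2 (0.30), without ex vivo replicate 2 (0.31), without ex vivo replicate 3 (0.34) and with relative log expression scaling (0.32). At 7 d the edgeR difference from ex vivo was −0.11 ± 0.11 on the log2 scale (adjusted p = 0.376), but on the TPM scale Tfe3 was lower, by −0.35 (limma adjusted p = 0.0126).

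Tfeb, the best known inducer of lysosomal genes, was read at 75.2, 49.6, 65.9, 63.6 and 76.4 CPM in ex vivo libraries, at 118 and 153 CPM after 6 h, at 96.9, 115 and 108 CPM after 24 h and at 58.8, 53.2, 62.5, 61.3 and 76.2 CPM after 7 d. Every library of 6 h and 24 h was above every ex vivo and 7 d library. Tfeb rose 2.05-fold at 6 h (log2 change 1.03 ± 0.17, edgeR adjusted p = 3.59e-05) and 1.61-fold at 24 h (0.69 ± 0.15, edgeR adjusted p = 0.000763). At 7 d the difference from ex vivo was −0.08 ± 0.13 (edgeR adjusted p = 0.582), but on the TPM scale Tfeb was lower, by −0.31 (limma adjusted p = 0.0438). In the edgeR fit 7 d cells were lower than 24 h cells by a log2 change of −0.77 ± 0.15 (edgeR adjusted p = 0.000497). Tfe3 was likewise lower at 7 d than at 24 h, with a log2 change of −0.46 ± 0.13 (edgeR adjusted p = 0.00726).

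Mitf, the founding member, which also acts in melanocytes, osteoclasts and mast cells, rose further and did not return. It was read at 69.2, 83.7, 58.7, 53.7 and 62.6 CPM in ex vivo libraries, at 277 and 276 CPM after 6 h, at 429, 363 and 388 CPM after 24 h and at 237, 147, 171, 224 and 255 CPM after 7 d. No cultured library in IL34 alone overlapped the ex vivo range, and the order of levels was ex vivo, 7 d, 6 h, 24 h with no overlap between neighbours. The rise over ex vivo was 4.22-fold at 6 h (log2 change 2.08 ± 0.19, edgeR adjusted p = 5.68e-08), 6.00-fold at 24 h (2.58 ± 0.18, edgeR adjusted p = 1.74e-09) and 3.16-fold at 7 d (1.66 ± 0.16, edgeR adjusted p = 9.59e-08). Mitf was lower at 7 d than at 24 h by a log2 change of −0.93 ± 0.17 (edgeR adjusted p = 0.000382). Between 24 h and 6 h the change of 0.51 ± 0.23 did not pass the edgeR test (adjusted p = 0.0813), although it did in a fit of these groups alone (0.55), on the TPM scale (0.86) and when the total counts set the scale (0.95).

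Tfec, the member found mainly in cells of the macrophage lineage, was almost silent ex vivo and was switched on within 6 h. The 5 ex vivo libraries held 35, 14, 23, 2 and 4 Tfec counts, 78 in all, or 1.62, 0.875, 0.928, 0.143 and 0.222 CPM. It reached 43.4 and 48.3 CPM after 6 h, 48.3, 57.3 and 48.2 CPM after 24 h and 25.3, 10.9, 13, 22.9 and 37.6 CPM after 7 d. Every cultured library was above every ex vivo library, the 6 h and 24 h ranges overlapped, and the 7 d libraries lay below both. The rise over ex vivo was 57.0-fold at 6 h (log2 change 5.83 ± 0.51, edgeR adjusted p = 6.39e-08), 63.7-fold at 24 h (5.99 ± 0.49, edgeR adjusted p = 3.68e-08) and 27.2-fold at 7 d (4.77 ± 0.46, edgeR adjusted p = 2.05e-07). The sizes of these folds rest on few ex vivo counts. The 7 d level was below the 24 h level by a log2 change of −1.23 ± 0.40 (edgeR adjusted p = 0.0197), a call lost without 24 h replicate 2 (−1.14).

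**Figure D1:**
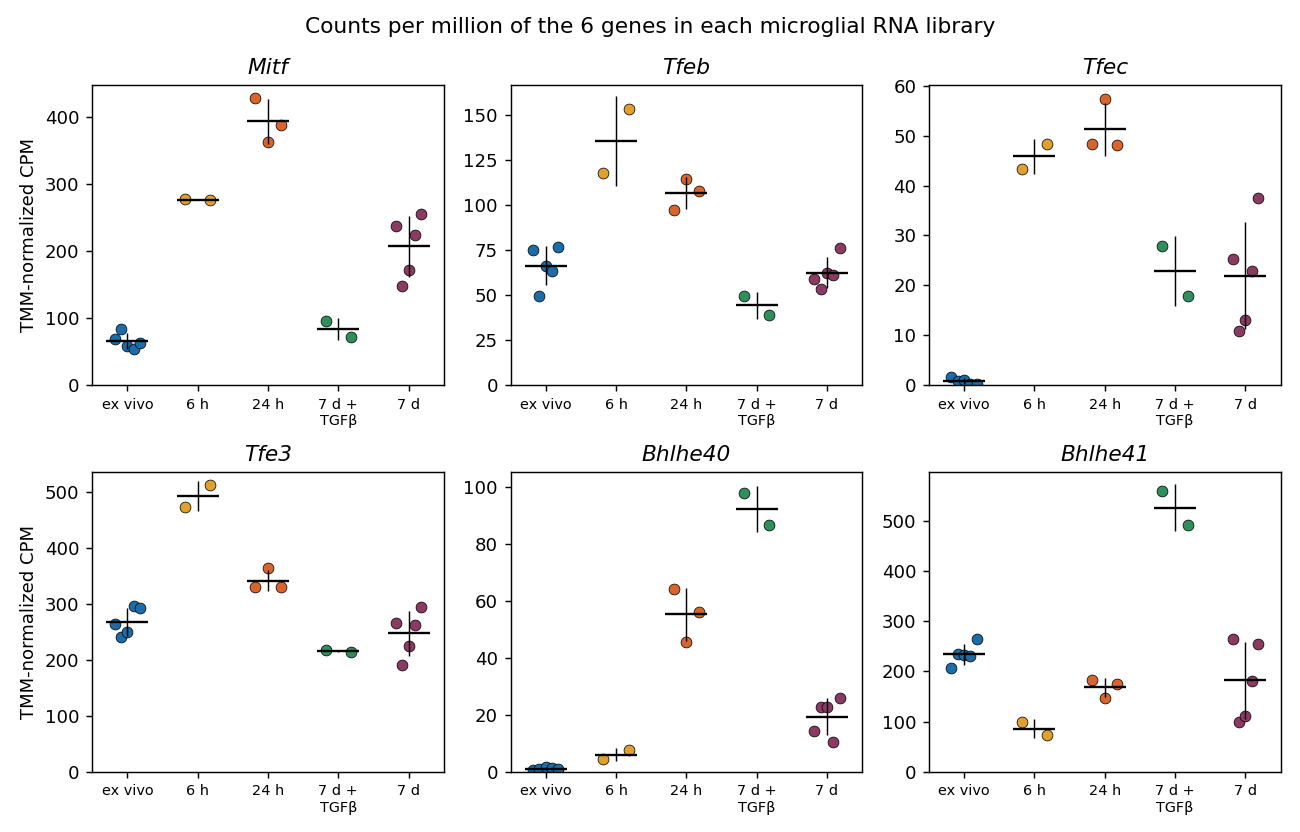
RNA level of each of the 6 genes in CPM (vertical axis, linear, own scale per panel) in every microglial library, by group from ex vivo through 6 h and 24 h to 7 d with and without TGFβ. Points are libraries, lines are group means and bars are SDs. Tfec and Bhlhe40 lie near 0 ex vivo, Mitf peaks at 24 h with 363 to 429 CPM, and Bhlhe41 is lowest at 6 h with 72.9 and 98.8 CPM.

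The Tfec promoter is shown because Tfec was the member whose RNA and H3K27ac both went from nearly none to clearly present. The 250 bases upstream of its start, at chr6:16898442-16898691 on the minus strand (GRCm38.p6, from RefSeq), hold 1 copy of the ETS core AGGAAGT, the letters to which PU.1 and other ETS factors bind, here in capitals and 71 bases upstream of the start.
Tfec: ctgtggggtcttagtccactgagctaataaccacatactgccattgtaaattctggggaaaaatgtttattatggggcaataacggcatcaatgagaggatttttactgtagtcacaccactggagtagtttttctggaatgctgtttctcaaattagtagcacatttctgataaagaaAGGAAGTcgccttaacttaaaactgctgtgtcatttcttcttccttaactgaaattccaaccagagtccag
Those capitals, at chr6:16898506-16898512, lie 12 bases from the centre of the ex vivo PU.1 peak at chr6:16898397-16898597. AGGAAGT, searched on both strands, was found in 9.35% of 32851 RefSeq promoter windows of the mouse, so a match alone is common. Of the 10 windows of the 5 members in that table, the only other copy was in Tfe3, 6 bases after its start and 6 bases from the centre of a PU.1 peak.

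Per length, Tfe3 was the most abundant family member in every group, and its share shrank in culture. The deposited TPM scale (transcripts per 1e6 transcripts) corrects for gene length. Its columns, however, summed to 608059 to 644847 in microglial libraries and to 568934 to 576604 in lysate, and were not rescaled to 1e6. On this scale, the 4 MiT/TFE genes summed to 259 ± 17.9 TPM ex vivo (SD, n = 5), 457 ± 36.1 after 6 h (n = 2), 515 ± 7.3 after 24 h (n = 3) and 274 ± 53.1 after 7 d (n = 5). Ex vivo, Tfe3 took 67.5% of that sum, Tfeb 21.7%, Mitf 10.4% and Tfec 0.33%. After 24 h the shares were 42.3% for Tfe3, 30.1% for Mitf, 17.1% for Tfeb and 10.5% for Tfec. At 7 d, when the sum was again close to the ex vivo sum, Tfe3 held 50.5%, Mitf 25.6%, Tfeb 16.7% and Tfec 7.15%. The 7 d sum thus came with a larger Mitf share in every library (24.4% to 27.5%) than in any ex vivo library (8.09% to 14.6%).

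Against ex vivo, Bhlhe41 fell and Bhlhe40 rose at 6 h. At 24 h and 7 d only the rise of Bhlhe40 was called in the edgeR fit of all microglial libraries. Bhlhe41 was read at 206, 234, 233, 231 and 264 CPM in ex vivo libraries, at 98.8 and 72.9 CPM after 6 h, at 182, 146 and 175 CPM after 24 h and at 265, 99.9, 111, 179.9 and 255 CPM after 7 d. The 6 h libraries lay below all others, the 24 h libraries below the ex vivo range, and the 7 d libraries spread over it. Bhlhe41 was 2.72-fold lower at 6 h than ex vivo (log2 change −1.44 ± 0.32, edgeR adjusted p = 0.000843). The differences from ex vivo of −0.48 ± 0.26 at 24 h (edgeR adjusted p = 0.127) and −0.36 ± 0.23 at 7 d (edgeR adjusted p = 0.162) did not pass. They did pass in a fit of the 24 h and ex vivo libraries alone (−0.48) and, for 7 d, without 7 d replicate 1 (−0.53) and on the TPM scale (−0.65).

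Bhlhe40, which is induced by many stimuli in immune cells, was read at 0.789, 1.00, 1.69, 1.43 and 0.834 CPM in ex vivo libraries, at 4.38 and 7.70 CPM after 6 h, at 64.2, 45.7 and 56.2 CPM after 24 h and at 14.4, 22.9, 22.6, 10.5 and 25.9 CPM after 7 d. No 2 of these groups overlapped. Bhlhe40 rose 5.19-fold at 6 h (log2 change 2.38 ± 0.35, edgeR adjusted p = 1.19e-05), 47.7-fold at 24 h (5.58 ± 0.31, edgeR adjusted p = 1.82e-10) and 16.6-fold at 7 d (4.05 ± 0.29, edgeR adjusted p = 2.75e-09). Its largest step came between 6 h and 24 h, a log2 change of 3.20 ± 0.39 (edgeR adjusted p = 1.01e-05). For Tfec the same step was 0.16 ± 0.51 (edgeR adjusted p = 0.832). On the TPM scale Bhlhe41 made up 99.0% of the pair ex vivo, and Bhlhe40 made up 12.5% after 6 h, 39.0% after 24 h and 19.1% after 7 d.

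Within the 7 d group, the low Bhlhe41 values of replicates 2 and 3 (99.9 and 111 CPM) fell in the libraries with the lowest Mitf (147 and 171 CPM), Tfec (10.9 and 13 CPM) and Tfe3 (191 and 224 CPM) and with Bhlhe40 at 22.9 and 22.6 CPM. Tfeb was not low in both: it was read at 53.2 and 62.5 CPM there, against 58.8, 61.3 and 76.2 CPM in replicates 1, 4 and 5. Leaving out replicates 2 and 3, a choice made after seeing the data, Tfe3 at 7 d against ex vivo was 0.0295 (edgeR adjusted p = 0.815). Bhlhe41 was then higher at 7 d than at 24 h by 0.46 (edgeR adjusted p = 0.0322), against 0.11 ± 0.26 with all 5 libraries. Tfec was then lower at 7 d than at 24 h by −0.86 without passing the edgeR test (adjusted p = 0.0747).

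Most genes changed in culture, so the members' calls are read against that background. At 6 h 5 members rose and 1 fell, while 68% of all tested genes were called, 31.2% higher and 36.8% lower. At 24 h 5 rose and 1 was not called, while 62.8% of genes were called, 29.6% higher and 33.1% lower. At 7 d 3 rose and 3 were not called, against 70.5% of all genes called with 34.8% higher and 35.7% lower. Between culture times, 2 members were higher and 1 lower at 24 h than at 6 h, where 41.8% of genes were called, 22% higher and 19.8% lower. Of those 3 calls, Bhlhe41 (higher, 0.97 ± 0.34) and Tfe3 (lower, −0.53 ± 0.16) were each lost without 24 h replicate 1 (0.93 and −0.48), 24 h replicate 3 (0.96 and −0.48), 6 h replicate 1 (1.19 and −0.60) or 6 h replicate 2 (0.76 and −0.48). Bhlhe41 was also lost with relative log expression scaling (0.87), and Tfe3 on the TPM scale (−0.17) and with total counts (−0.0890), so the Bhlhe40 call is the one that held. At 7 d against 24 h 0 members were higher and 5 lower, where 48.8% of genes were called, 27.2% higher and 21.6% lower. At 7 d against 6 h 2 were higher and 3 lower, where 66% of genes were called, 36% higher and 29.9% lower. The Tfec call there (−1.06 ± 0.45, edgeR adjusted p = 0.048) was lost without either 6 h library or without any 1 of 7 d replicates 1 to 4 (−1.17 to −0.89), with the replicate block, without the filter, with total counts and on log2(TPM + 1). Bhlhe41 (1.08 ± 0.32) was lost without 6 h replicate 2 (0.85) and in a fit of those groups alone (1.05). The 5 members lower at 7 d than at 24 h were the 5 that had risen at 24 h over ex vivo; both comparisons share the 24 h libraries.

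**Figure D2:**
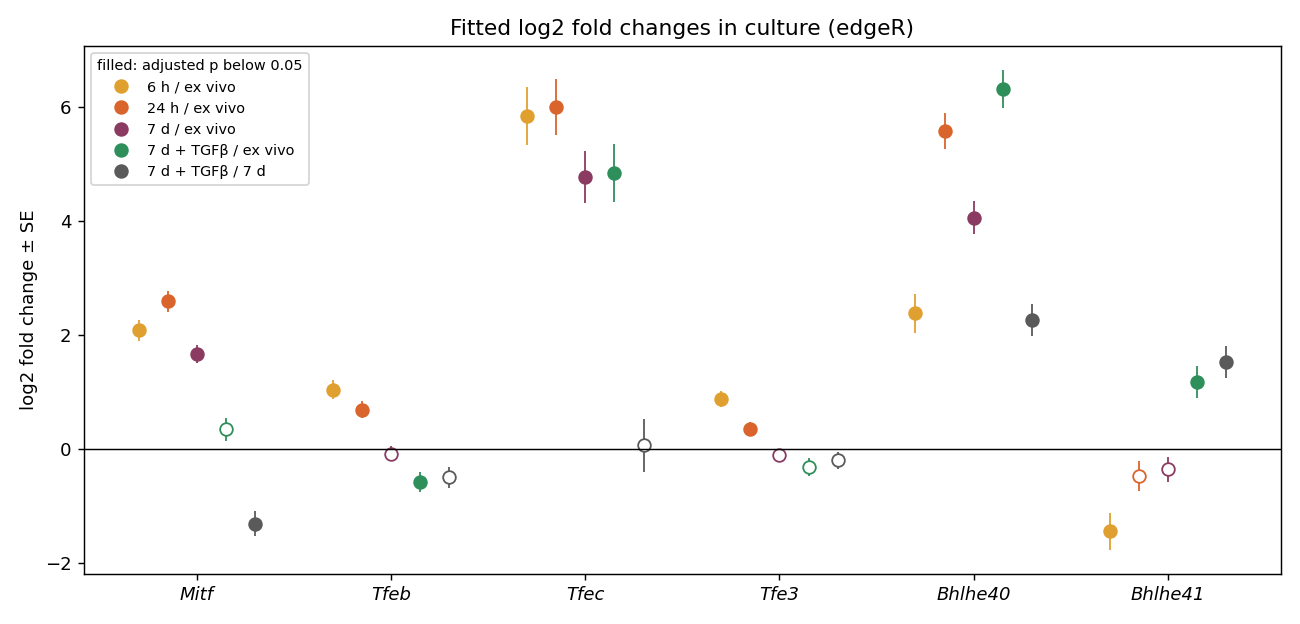
Log2 fold change of each of the 6 genes (vertical axis) with its SE as bars, for 6 h, 24 h, 7 d and 7 d with TGFβ against ex vivo and for 7 d with TGFβ against 7 d. Filled symbols passed an adjusted p of 0.05 in edgeR and open symbols did not. Tfec at 5.83 and 5.99 and Bhlhe40 at 5.58 are the largest rises over ex vivo in IL34 alone.

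The Bhlhe and MiT/TFE proteins both bind the E-box. Bhlhe40 had no promoter window, so its promoter was not searched for motifs. The Bhlhe41 promoter is shown because it holds the only E-box found in the 10 windows of the other 5 members. The 250 bases upstream of its start lie at chr6:145865421-145865670 on the minus strand (GRCm38.p6, from RefSeq), with the palindromic E-box CACGTG in capitals, 153 bases upstream of the start.
Bhlhe41: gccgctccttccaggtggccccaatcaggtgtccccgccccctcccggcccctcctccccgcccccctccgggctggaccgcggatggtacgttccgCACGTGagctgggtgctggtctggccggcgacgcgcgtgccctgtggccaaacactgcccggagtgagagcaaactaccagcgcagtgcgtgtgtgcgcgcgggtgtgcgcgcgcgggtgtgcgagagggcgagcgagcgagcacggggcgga
CACGTG was found in 7.15% of the 32851 promoter windows. The other letters searched on both strands were the MITF-type M-box TCATGTG (3.77% of windows), the extended PU.1 motif GAGGAAGT (3.20%, which contains AGGAAGT) and the AP-1 motif TGAGTCA (5.20%), and the members' windows held none of them. The Bhlhe41 window was covered by ATAC and H3K27ac peaks in both conditions and by H3K4me2 ex vivo, with no PU.1 peak.

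TGFβ, a cytokine that microglia need to keep their identity, moved the Bhlhe pair up and Mitf down. Bhlhe41 was read at 559 and 492 CPM in the 2 libraries with TGFβ, against 265, 99.9, 111, 179.9 and 255 CPM in the 5 libraries with IL34 alone. Bhlhe40 was read at 98.1 and 86.6 CPM with TGFβ, against 14.4, 22.9, 22.6, 10.5 and 25.9 CPM without it. For both genes the libraries with TGFβ were the highest of all microglial libraries. Bhlhe41 rose 2.89-fold (log2 change 1.53 ± 0.28, edgeR adjusted p = 0.00105) and Bhlhe40 4.79-fold (2.26 ± 0.29, edgeR adjusted p = 3.1e-05) over 7 d in IL34 alone.

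Mitf was read at 94.9 and 71.7 CPM with TGFβ, against 237, 147, 171, 224 and 255 CPM without it, and was 2.48-fold lower (log2 change −1.31 ± 0.22, edgeR adjusted p = 0.000439). Its 2 libraries with TGFβ overlapped the ex vivo range, with a log2 difference from ex vivo of 0.35 ± 0.20 (edgeR adjusted p = 0.155). Tfec showed no such return: it was read at 27.8 and 17.9 CPM with TGFβ, within the range of 10.9 to 37.6 CPM without it. Tfec differed by 0.06 ± 0.47 on the log2 scale (edgeR adjusted p = 0.96), and this value changed sign in several alternatives. Tfe3 was read at 217 and 214 CPM with TGFβ, against 191 to 294 CPM without it (log2 change −0.20 ± 0.15, edgeR adjusted p = 0.417). Tfeb was read at 49.6 and 38.8 CPM, against 53.2 to 76.2 CPM (−0.50 ± 0.18, edgeR adjusted p = 0.0698), with no overlap. The Tfeb difference passed without 7 d replicate 2 (−0.55), with total counts as the scale (−0.59) and on the TPM scale (−0.62).

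Between the TGFβ cultures and the other 7 d cultures 16.1% of all genes were called, 9.57% higher and 6.52% lower, while 2 members rose, 1 fell and 3 were not called. Those calls of the whole table numbered 2227, and 1346 and 1260 when TGFβ replicate 1 or 2 was left out. Against ex vivo, where 55.8% of genes were called, 28.3% higher and 27.5% lower, Bhlhe40 was 79.5-fold higher in the TGFβ cultures (log2 change 6.31 ± 0.33, edgeR adjusted p = 2.53e-10). Bhlhe41 was 2.25-fold higher than ex vivo (1.17 ± 0.28, edgeR adjusted p = 0.00241), and Tfec remained higher, by 4.83 ± 0.51 (edgeR adjusted p = 1.46e-06). Tfeb was 1.50-fold lower than ex vivo (−0.58 ± 0.18, edgeR adjusted p = 0.0118), a call lost without TGFβ replicate 2 (−0.40). These comparisons share their 7 d and ex vivo libraries. On the TPM scale the MiT/TFE sum was 182 ± 10.2 with TGFβ (n = 2) and 274 ± 53.1 without it (n = 5), and the Bhlhe sum was 175 ± 7.6 with TGFβ and 60.2 ± 20.6 without it.

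In brain, all but 1 of the members that could be tested were richer in sorted microglia than in unsorted lysate. Mitf was read at 80.1, 97.3, 67.8, 62.6 and 73.6 CPM in ex vivo microglia, against 10.1, 8.09, 9.37 and 7.41 CPM in lysate, when the 9 libraries were scaled together. Tfeb averaged 76.9 ± 12.8 CPM in ex vivo microglia and 8.27 ± 1.67 CPM in lysate, and Tfe3 312 ± 30.9 CPM in ex vivo microglia and 41.5 ± 4.5 CPM in lysate (SD, n = 5 and 4). Bhlhe41 averaged 272 ± 25.6 CPM in ex vivo microglia and 43.3 ± 8.9 CPM in lysate. The rise in microglia was 8.71-fold for Mitf (log2 change 3.12 ± 0.17, edgeR adjusted p = 6.27e-09) and 9.31-fold for Tfeb (3.22 ± 0.19, edgeR adjusted p = 1.22e-08). It was 7.51-fold for Tfe3 (2.91 ± 0.13, edgeR adjusted p = 1.24e-09) and 6.28-fold for Bhlhe41 (2.65 ± 0.16, edgeR adjusted p = 1.48e-08).

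Bhlhe40 went the other way. It was read at 0.913, 1.16, 1.96, 1.67 and 0.981 CPM in ex vivo microglia, against 165, 157, 90.6 and 120.5 CPM in lysate, and was 98.7-fold lower in microglia (log2 change −6.62 ± 0.27, edgeR adjusted p = 5.39e-10). On the TPM scale Bhlhe40 made up 0.97% of the pair in ex vivo microglia and 84.9% in lysate. Tfec had 3, 0, 3 and 0 counts in lysate and was not tested in this comparison. Across 15335 genes 82.7% were called here, 39.1% higher and 43.5% lower in microglia, against 4 members higher and 1 lower. In such bulk samples a smaller share of microglia and less RNA per cell cannot be told apart.

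**Figure D3:**
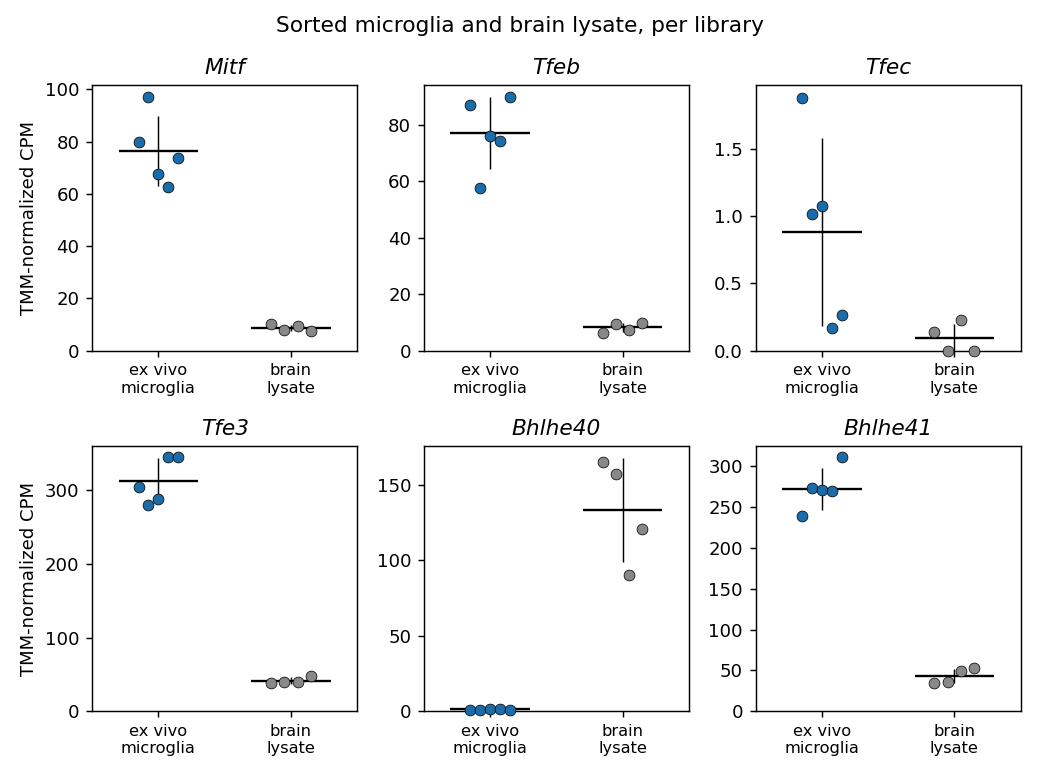
RNA level of each gene in CPM in the 5 ex vivo microglia libraries (left) and the 4 brain lysate libraries (right), scaled together. Points are libraries, lines are means and bars are SDs. Bhlhe40 is the gene that is higher in lysate, at 90.6 to 165 CPM.

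Chromatin at the 6 genes was read from 1 peak list per assay and condition, called on pooled libraries, so there is no replicate spread and no test. Peaks were counted over each gene and 20 kb on either side. The ATAC lists held 112977 peaks from 15.2 M tags at 7 d and 90674 peaks from 23.8 M tags ex vivo, and 39.8% of the 7 d list and 24.96% of the ex vivo list had no counterpart in the other. Mitf (chr6:97807002-98021360) had 31 ATAC peaks at 7 d, 15 of them without an ex vivo counterpart, and 20 ex vivo, 4 of them without a 7 d counterpart. It had 6 H3K27ac peaks in each condition, covering 31768 bp at 7 d and 19389 bp ex vivo. Tfeb (chr17:47737037-47792416) had 15 ATAC peaks at 7 d and 14 ex vivo, and Tfe3 (chrX:7762530-7775202) had 9 at 7 d and 12 ex vivo. H3K27ac covered 19298 bp at 7 d and 23528 bp ex vivo around Tfeb, and 9891 bp at 7 d and 14736 bp ex vivo around Tfe3.

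Tfec (chr6:16830927-16898464) was the one member with no ex vivo H3K27ac peak. At 7 d it had 3, at chr6:16883026-16884451, chr6:16890941-16893146 and chr6:16896256-16898771, together 6148 bp. The last of these covers its start. Each of the 3 regions held a PU.1 peak of the ex vivo list, and the promoter shown above, with its AGGAAGT, was open and carried PU.1 and H3K4me2 ex vivo. Of 21631 protein-coding genes 7.31% had some 7 d and no ex vivo H3K27ac peak within the same distance, and 0.837% had at least 3 such peaks. Tfec had 14 ATAC peaks at 7 d and 11 ex vivo.

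Bhlhe40 (chr6:108660629-108666925) had 4 ATAC peaks at 7 d and 7 ex vivo. It had 1 H3K27ac peak in each condition, of 3264 bp at 7 d and 1369 bp ex vivo, both overlapping an ex vivo H3K4me2 peak of 3474 bp. The ex vivo H3K27ac peak, at chr6:108659064-108660432, ended before the low-coordinate end of the gene, while the 7 d peak, at chr6:108658317-108661580, ran across it. Bhlhe41 (chr6:145858243-145865420) had 7 ATAC peaks at 7 d and 9 ex vivo, and its H3K27ac covered 9413 bp at 7 d and 9634 bp ex vivo. PU.1 peaks ex vivo numbered 20 around Mitf, 16 around Tfeb, 5 around Tfec, 7 around Tfe3, 2 around Bhlhe40 and 7 around Bhlhe41.

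**Figure D4:**
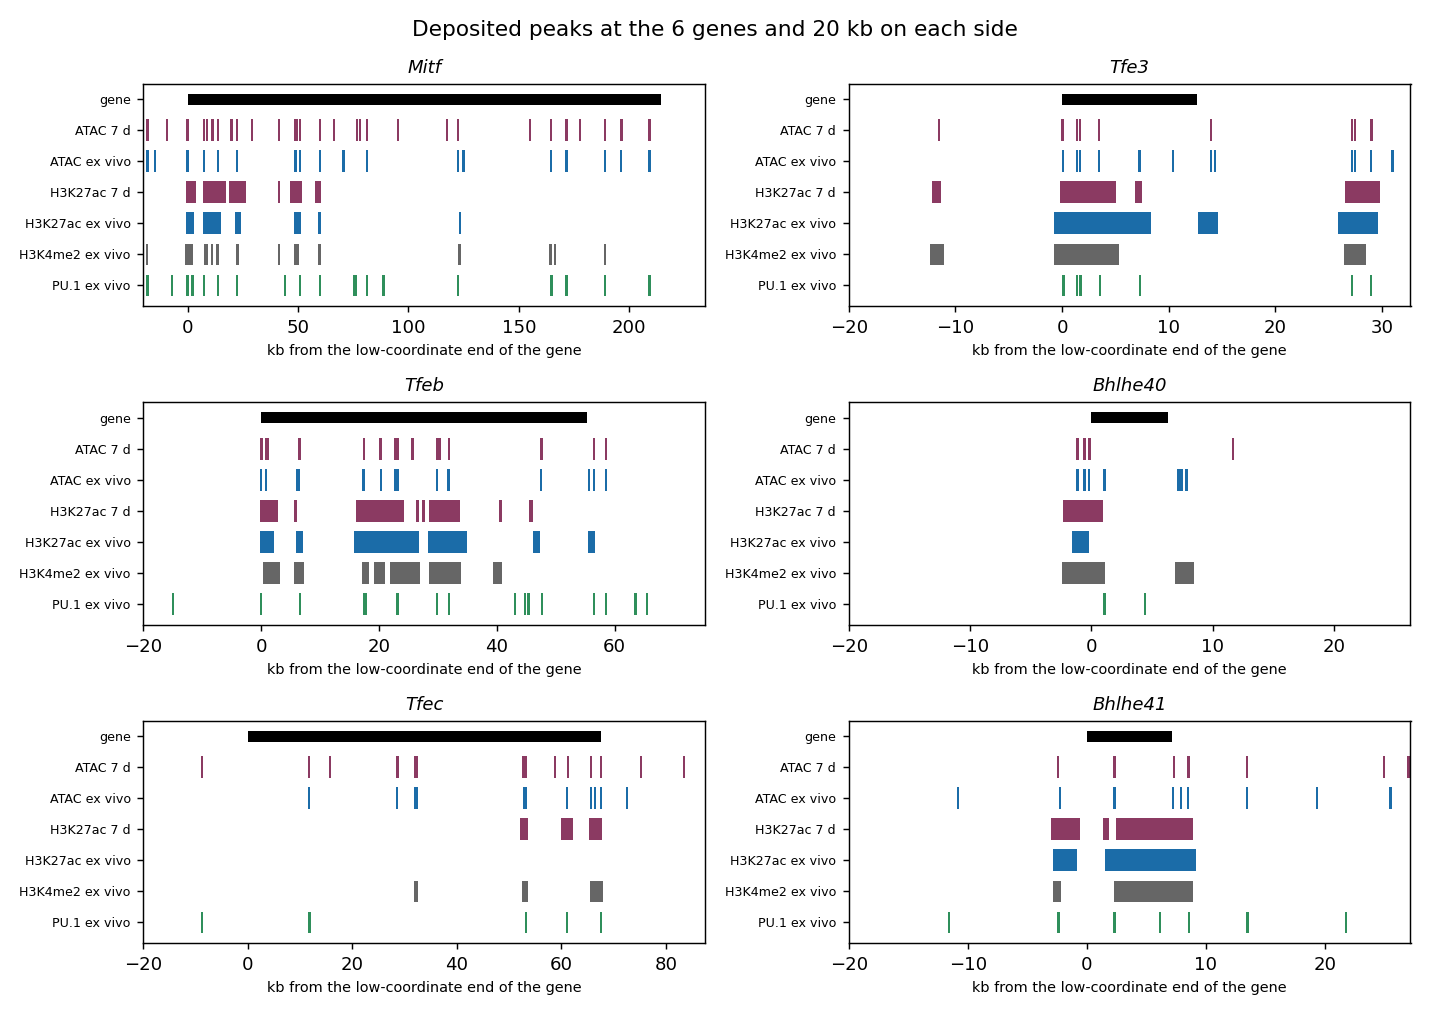
Peaks of the 6 lists around each gene, drawn as bars in kb from the gene's low-coordinate end (horizontal axis), with the gene body marked; the narrowest peaks are drawn at a minimum width of 0.4% of the panel. At Tfec the 7 d H3K27ac track has 3 peaks and the ex vivo H3K27ac track has none.

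Over all 6 genes, 27 of 80 ATAC peaks of the 7 d list had no ex vivo counterpart, or 33.8% (95% exact binomial interval 23.6% to 45.2%), against 39.8% of that whole list. Ex vivo it was 20 of 73, or 27.4% (17.6% to 39.1%), against 24.96% of that list. Among ATAC peaks lying in H3K27ac peaks of the same condition the shares were 18.6% at 7 d and 15.4% ex vivo, and within gene bodies alone the ex vivo share was 16.7%. The whole lists were not restricted in these ways, so these shares have no background beside them. For H3K27ac, 8 of 25 peaks at 7 d had no ex vivo counterpart, or 32.0% (14.9% to 53.5%), against 42.5% of the whole list. Of the ex vivo H3K27ac peaks, 4 of 18 had no 7 d counterpart, or 22.2% (6.41% to 47.6%), against 32.2% of that list. The intervals cover counting error only, and neighbouring peaks are not independent. The H3K27ac lists differ in depth and in background, with 31349 peaks, 27.6 M tags and 32.1% of tags in peaks at 7 d, against 24520 peaks, 45.6 M tags and 64.0% ex vivo. Peak lengths are therefore not compared between conditions beyond the values above.

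The lysosomal genes that TFEB is known to bind, the CLEAR network, were mostly higher at 7 d, later than the rise of the MiT/TFE genes. Genes of this list and of the lists below were not chosen independently of these data, so their counts are a description. A link between any of these lists and the levels of the MiT/TFE genes was not tested. Of 34 tested genes of a list of 35, 27 rose and 3 fell at 7 d, with a median log2 change of 0.90, against −0.02 over all genes, of which 34.8% were called higher and 35.7% lower. At 24 h 12 rose and 11 fell (median 0.17, against −0.06 over all genes), and at 6 h 13 rose and 16 fell (−0.36, against −0.17). Of all genes, 29.6% were called higher and 33.1% lower at 24 h, and 31.2% higher and 36.8% lower at 6 h. Ctsb, the protease cathepsin B, averaged 23862 ± 3289 CPM at 7 d and 2242 ± 79.3 CPM ex vivo (log2 change 3.41 ± 0.14, edgeR adjusted p = 2.81e-12). Atp6v1a, the catalytic subunit of the lysosomal proton pump, averaged 1017 ± 231 CPM at 7 d and 63.6 ± 11.4 CPM ex vivo (4.00 ± 0.18, edgeR adjusted p = 9.69e-12). Atp6v0e, a membrane subunit of the pump, averaged 148 ± 7.6 CPM at 7 d and 33.7 ± 4.2 CPM ex vivo (2.13 ± 0.10). The genes that fell included Ctsf and Ctns, which encode cathepsin F and the cystine exporter. Ctsf averaged 28.2 ± 2.0 CPM at 7 d and 213 ± 25.7 CPM ex vivo (−2.92 ± 0.14), and was higher with TGFβ, at 131 ± 39.7 CPM against 28.2 ± 2.0 CPM (2.22 ± 0.16). Naglu, an enzyme of heparan sulphate breakdown, did not pass at 7 d (−0.36 ± 0.19, edgeR adjusted p = 0.1), although it did with DESeq2 (−0.43), on the TPM scale (−0.65) and without 7 d replicate 3 (−0.58). Without that library 5 CLEAR genes fell.

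The genes through which nutrients hold MiT/TFE proteins in the cytoplasm were more often higher than lower at all 3 times. Of 23 tested, 13 rose and 3 fell at 6 h, 14 rose and 3 fell at 24 h and 16 rose and 2 fell at 7 d (median log2 change 0.76 at 7 d, against −0.02 over all genes). Of all genes, 31.2% were called higher at 6 h, 29.6% at 24 h and 34.8% at 7 d. Rragd, a Rag GTPase gene that MiT/TFE factors themselves induce, averaged 70.5 ± 17.8 CPM at 7 d and 2.58 ± 0.59 CPM ex vivo (4.77 ± 0.27, edgeR adjusted p = 1.49e-10). Rragc, another Rag GTPase gene, averaged 285 ± 42 CPM at 7 d and 103 ± 8.5 CPM ex vivo (1.47 ± 0.11). Fnip2, which encodes a partner of folliculin, averaged 547 ± 141 CPM at 7 d and 116 ± 16.6 CPM ex vivo (2.24 ± 0.19), and Lamtor3, a part of the Ragulator complex, 37.3 ± 5.0 CPM at 7 d and 11.6 ± 2.6 CPM ex vivo (1.68 ± 0.15). All 5 Lamtor genes rose, and Flcn, folliculin itself, and Rptor, an mTORC1 subunit, fell. Mtor (−0.09 ± 0.12) and Tsc2, a brake on mTORC1 (−0.08 ± 0.12), did not pass.

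With TGFβ, 0 of these 23 genes were higher and 5 were lower than in IL34 alone (median −0.44, against −0.04 over all genes, of which 9.57% were called higher and 6.52% lower). The 5 were Rraga, Rragd, Fnip2, Lamtor3 and Lamtor5. Rragd averaged 23.1 ± 13.1 CPM with TGFβ and 70.5 ± 17.8 CPM without it (−1.61 ± 0.32, edgeR adjusted p = 0.00186). Fnip2 averaged 280 ± 103 CPM with TGFβ and 547 ± 141 CPM without it (−0.96 ± 0.25, edgeR adjusted p = 0.012). The count of lower genes ranged between 0 and 8 over the alternatives: without TGFβ replicate 2 it was 0, with Rragd at −1.11 and Fnip2 at −0.61, without 7 d replicate 4 it was 3, and on the TPM scale with a mean of at least 1 TPM it was 8. The Fnip2 call was also lost in a fit of these 7 libraries alone (−0.94). Of the CLEAR genes 5 were higher and 4 lower with TGFβ (3 to 7 higher and 1 to 9 lower over the alternatives, with 3 higher without TGFβ replicate 1 and 1 lower without TGFβ replicate 2), and Atp6v1a was among the lower ones, at 456 ± 56.2 CPM with TGFβ and 1017 ± 231 CPM without it (−1.16 ± 0.22, edgeR adjusted p = 0.00145).

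Targets of MITF-family factors in osteoclasts and macrophages were mostly higher at 7 d, where 34.8% of all genes were called higher and 35.7% lower. Of 10 tested, 7 rose and 2 fell, and over the alternatives 5 to 7 rose and 1 to 3 fell. Gpnmb, a transmembrane glycoprotein of lipid-laden macrophages, averaged 2879 ± 718 CPM at 7 d and 1.43 ± 1.23 CPM ex vivo (log2 change 10.96 ± 0.56, edgeR adjusted p = 1.24e-10). It stood at 4.36 ± 2.91 CPM at 6 h and 38.6 ± 7.5 CPM at 24 h, when Mitf was at its highest. Atp6v0d2, the pump subunit of osteoclasts, averaged 75.9 ± 39.6 CPM at 7 d and 0.0456 ± 0.0813 CPM ex vivo, and was lower with TGFβ, at 8.45 ± 3.49 CPM (−3.17 ± 0.51, edgeR adjusted p = 0.000394). Clcn7, a lysosomal chloride transporter, averaged 308 ± 61.5 CPM at 7 d and 134 ± 20.3 CPM ex vivo (1.2 ± 0.14). The genes that fell were Mmp9, a secreted protease, and Nfatc1, the leading transcription factor of osteoclasts, with Nfatc1 at 62.0 ± 13.1 CPM at 7 d and 233 ± 36.3 CPM ex vivo (−1.91 ± 0.15).

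**Figure D5:**
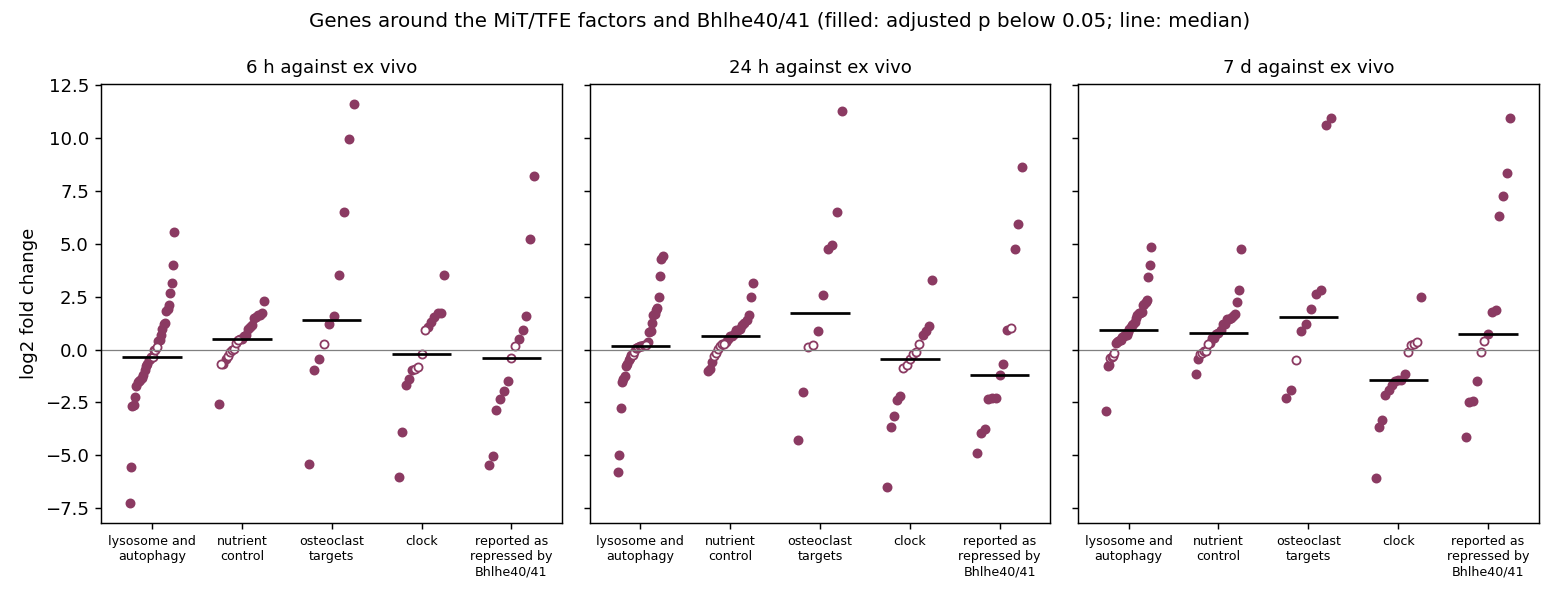
Log2 fold change against ex vivo (vertical axis) of every tested gene of the 5 gene lists at 6 h, 24 h and 7 d. Points are genes and lines are list medians. The CLEAR median lies at −0.36 at 6 h, 0.17 at 24 h and 0.90 at 7 d, and the clock median at −1.43 at 7 d.

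Of the clock genes, whose activators Bhlhe40 and Bhlhe41 oppose, 10 of 15 tested fell at 7 d and 1 rose, with a median log2 change of −1.43, against −0.02 over all genes and 35.7% of all genes called lower. At 6 h 6 rose and 5 fell, with 31.2% of all genes called higher and 36.8% lower. At 24 h 4 rose and 5 fell, with 29.6% called higher and 33.1% lower. Per2, a negative regulator of the clock, averaged 3.45 ± 0.64 CPM at 7 d and 35.2 ± 16.7 CPM ex vivo (−3.35 ± 0.31, edgeR adjusted p = 8.1e-08). Per3, its relative, averaged 8.19 ± 2.03 CPM at 7 d and 104 ± 48.5 CPM ex vivo (−3.66 ± 0.29), and the output factor Hlf 0.442 ± 0.113 CPM at 7 d and 29.6 ± 14.8 CPM ex vivo (−6.05 ± 0.42). The gene that rose was Nfil3, a repressor of clock output genes, at 34.7 ± 4.7 CPM at 7 d and 6.18 ± 2.75 CPM ex vivo (2.47 ± 0.24). Clock itself (0.37 ± 0.18) and Rora, an activator of the loop (0.25 ± 0.19), did not pass, although Clock did without ex vivo replicate 2 (0.48), 7 d replicate 2 (0.47) or 7 d replicate 3 (0.48). The time of day at which cells were taken is not given in the labels, so time of day and culture cannot be told apart for this list.

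Genes reported elsewhere as repressed by Bhlhe40 or Bhlhe41 in macrophages split in both directions. Of 13 tested, 5 rose and 6 fell at 6 h (median −0.38, against −0.17 over all genes), when Bhlhe41 was at its lowest and Bhlhe40 at 4.38 and 7.70 CPM, with 2 to 6 rising over the alternatives and 3 without 6 h replicate 1. At 24 h 4 rose and 8 fell (−1.22, against −0.06), when Bhlhe40 was at its highest level in IL34 alone, and at 7 d 7 rose and 4 fell (0.74, against −0.02). Of all genes, 31.2% were called higher and 36.8% lower at 6 h, and 29.6% higher and 33.1% lower at 24 h. At 7 d it was 34.8% higher and 35.7% lower. A link between these counts and the Bhlhe40 and Bhlhe41 levels was not tested. Between 7 d and 24 h 10 rose and 0 fell (median 1.47, against 0.06 over all genes and 27.2% of genes called higher), with 3 not called. Lpl, lipoprotein lipase, averaged 10217 ± 579 CPM at 7 d and 31.2 ± 14.7 CPM ex vivo (8.35 ± 0.36, edgeR adjusted p = 7e-12), and was already at 9294 ± 216 CPM after 6 h. Plin2, a coat protein of lipid droplets, averaged 2872 ± 232 CPM at 7 d and 19.0 ± 3.9 CPM ex vivo (7.24 ± 0.19). Abcg1, a cholesterol exporter, averaged 17.6 ± 3.9 CPM at 7 d and 304 ± 37.3 CPM ex vivo (−4.11 ± 0.18).

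In the TGFβ cultures, where both Bhlhe genes were highest, 5 of these 13 genes were higher and 4 lower than in IL34 alone, or 2 lower without TGFβ replicate 2, where 9.57% of all genes were called higher and 6.52% lower with all libraries. Lpl averaged 872 ± 115 CPM with TGFβ and 10217 ± 579 CPM without it (−3.55 ± 0.43, edgeR adjusted p = 1.76e-05), and Plin2 1040 ± 174 CPM with TGFβ and 2872 ± 232 CPM without it (−1.47 ± 0.20, edgeR adjusted p = 7.29e-05). Maf, a macrophage transcription factor, averaged 239 ± 119 CPM with TGFβ and 695 ± 92.1 CPM without it (−1.54 ± 0.32, edgeR adjusted p = 0.00258), a call lost without TGFβ replicate 2 (−1.09). The cholesterol exporter genes Abca1 and Abcg1 were instead higher, with Abcg1 at 93.6 ± 15.8 CPM with TGFβ and 17.6 ± 3.9 CPM without it (2.41 ± 0.20, edgeR adjusted p = 3.09e-07). Gpnmb did not pass the edgeR test, at 1097 ± 323 CPM with TGFβ and 2879 ± 718 CPM without it (−1.39 ± 0.51, adjusted p = 0.0779), but did on the TPM scale (−1.52). The 5 lists share Gpnmb, Clcn7 and Ctsd between them, and their genes were not chosen independently of these data.

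The genes whose log2 CPM followed each member most closely over the 17 microglial libraries, out of 12906 candidates, were found by Pearson's r, given as a description because the libraries share their groups. Mitf was followed most closely by Col4a3bp, a ceramide transporter (r = 0.966), Sgms1, a sphingomyelin synthase (0.966), and Stam2, an endosomal sorting protein (0.964). Sgms1 averaged 28.7 CPM ex vivo, 118 CPM at 6 h, 143 CPM at 24 h, 46.5 CPM at 7 d with TGFβ and 75.2 CPM at 7 d without it, the same order of groups as Mitf. Tfeb was followed by Armc7 (0.962), Noc2l (0.943) and Ptafr, the receptor for platelet-activating factor (0.939). Tfec was followed by Ints12 (0.986), Rnf128 (0.979) and Cd300lb, an activating receptor of myeloid cells (0.978). Cd300lb averaged 2.31 CPM ex vivo and 1029 CPM at 6 h. Tfe3 was followed by Rela, an NF-κB subunit (0.975), Dtx2 (0.972) and Dyrk1a (0.966), and Rela averaged 174 CPM ex vivo, 467 CPM at 6 h and 265 CPM at 24 h. Bhlhe40 was followed by Haus8 (0.958), Pdxdc1 (0.954) and Clec7a, the receptor dectin-1 (0.943), and Bhlhe41 by Pigf (0.930), Lhfpl2 (0.905) and Slc35e1 (0.887). Among the members, the closest pair was Tfeb and Tfe3 (0.919), then Mitf and Tfec (0.852), while Bhlhe41 ran against Tfeb (−0.659), Tfe3 (−0.531) and Mitf (−0.504).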

How the data were processed

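The members, the gene lists and the tests were chosen with earlier results of these data known. Gene counts and TPM values were deposited by the authors; per the submitters' processing notes, STAR, HOMER, Bowtie2, bedtools, limma and R 3.3.1 were used with the builds mm10 and hg38, and these sources give no counting strand. Peaks in the deposited lists were called with HOMER on pooled libraries, per the file headers. The 17 microglial RNA libraries were fitted together in edgeR 4.0.16 (R 4.3.3; TMM scaling, filterByExpr, robust quasi-likelihood F test, 1 mean per group), and the 9 ex vivo and lysate libraries in a fit of their own. P-values were adjusted by Benjamini-Hochberg over 13840 and 15335 genes, with a threshold of 0.05, and SEs were derived from the log2 change and its F statistic. The authors' deposited TPM was used to compare levels between genes and as an alternative, tested with limma 3.58.1 on log2(TPM + 1), and with a pseudocount of 0.1. DESeq2 1.42.0 was a further alternative. The model was also run on simulated data with 200 changed genes, raised and lowered in equal number. That is far fewer than were called in any comparison here, so the simulation does not check the scaling.

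Depth per library, in M counts, lay between 13.3 and 21.9 for ex vivo cells, 21.4 and 25.6 for 6 h, 21.3 and 21.9 for 24 h, 24.2 and 28.0 for 7 d, 23.9 and 28.8 for TGFβ cultures, and 11.6 and 25.7 for lysate. In the microglial fit, TMM factors were 0.784 and 0.814 at 6 h and 0.916 to 1.13 in the other groups, and in the lysate fit they were 0.871 to 0.980 for ex vivo cells and 1.08 to 1.16 for lysate. No 2 libraries held identical values. Named genes were all 6 members, the 3 genes with the highest correlation to each, and of each list up to 4 called genes with the smallest adjusted p at 7 d and up to 2 abundant genes not called. Single genes given for their direction beyond that rule were named after their values were seen. Peak overlap needed 1 bp. Same-numbered libraries were checked for pairing and their deviations from group means correlated between −0.14 and 0.38, so the numbers were not used as pairs. Bhlhe40 overlaps 0610040F04Rik, which held at most 126 counts in a library, Mitf overlaps Gm15531 and Tfe3 overlaps Gm39487, and their reads could be shared. Promoter sequences were taken from RefSeq (GRCm38.p6), matched by symbol for 5 of the 6 members, with none for Bhlhe40. Some genes of the lists are counted but not reported by name here.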

Additional observations from a re-analysis of the deposited data

How the results depend on the processing

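Of the members' results at 6 h against ex vivo, every call held in each alternative run, but the sizes moved. Over the alternatives the log2 change ranged between 0.48 and 0.98 for Tfe3, 0.64 and 1.24 for Tfeb and 1.65 and 2.18 for Mitf. For Tfec it was 4.51 to 6.34, for Bhlhe40 1.16 to 2.76 and for Bhlhe41 −1.85 to −1.21. The values that crossed a threshold or changed sign were the following, as log2 changes. With total counts in place of TMM, Mitf was 0.95, Tfe3 −0.0890 and Tfeb 0.0894 at 24 h against 6 h, Bhlhe41 −0.00519 at 7 d against 24 h, Tfec −0.75 at 7 d against 6 h, Tfe3 −0.47 with TGFβ against ex vivo, and with TGFβ against 7 d Tfeb was −0.59 and Tfec −0.0205. With relative log expression scaling, Bhlhe41 was 0.87 at 24 h against 6 h, Mitf −0.54 at 7 d against 6 h and Tfe3 0.32 at 24 h against ex vivo. DESeq2 gave Mitf −0.54 at 7 d against 6 h, and without a filter Tfec was −1.05 there. On log2(TPM + 1), with the pseudocount of 0.1 in brackets, Bhlhe41 was −0.16 (−0.17) at 7 d against 24 h and −0.65 (−0.66) at 7 d against ex vivo, Mitf 0.86 (0.87) at 24 h against 6 h and −0.0503 (−0.0518) with TGFβ against ex vivo, Tfe3 −0.17 (−0.17) at 24 h against 6 h, −0.35 (−0.36) at 7 d and −0.68 (−0.69) with TGFβ against ex vivo, Tfeb 0.0107 (0.0109) at 24 h against 6 h, −0.31 (−0.32) at 7 d against ex vivo and −0.62 (−0.64) with TGFβ against 7 d, and Tfec −1.0 (−1.04) at 7 d against 6 h; a mean of at least 1 TPM gave the same values within rounding. Fitting only the groups compared, Bhlhe41 was −0.48 at 24 h against ex vivo and 1.05 at 7 d against 6 h, and Mitf 0.55 at 24 h against 6 h. With the replicate block, Bhlhe41 was −0.0770 at 7 d against 24 h and Tfec −1.13 at 7 d against 6 h, and the block changed no other call. Without 7 d replicates 2 and 3, chosen after seeing the data, Bhlhe41 was 0.46 and Tfec −0.86 at 7 d against 24 h, Tfec −0.69 at 7 d against 6 h and −0.32 with TGFβ against 7 d, and Tfe3 0.0295, Mtor 0.0220 and Tsc2 0.0308 at 7 d against ex vivo. The causes were not tested.

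With single libraries left out, Tfe3 ranged between 0.30 and 0.40 at 24 h against ex vivo. At 24 h against 6 h, Tfe3 ranged between −0.60 and −0.48, Bhlhe41 between 0.76 and 1.19, and the calls over all genes between 3615 and 4933, against 5779 with all libraries (3615 without 6 h replicate 1, which leaves 1 library at 6 h, assumed to vary like the other groups). At 7 d against 24 h, Tfec ranged between −1.51 and −1.05 and Bhlhe41 between −0.0593 and 0.27. At 7 d against 6 h, Mitf ranged between −0.50 and −0.32, Tfec between −1.35 and −0.89 and Bhlhe41 between 0.85 and 1.29. Bhlhe41 ranged between −0.53 and −0.21 at 7 d against ex vivo. With TGFβ, Tfeb ranged between −0.68 and −0.31 and Tfec between −0.28 and 0.36 against 7 d, Tfeb between −0.77 and −0.40 against ex vivo, and the calls over all genes between 1260 and 2326 against 7 d.

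Scaling moved the balance of calls: 4312 genes were higher and 5099 lower at 6 h, but 3068 and 6322 with total counts, whose median log2 change was −0.57 in place of −0.17. At 24 h against 6 h it was 3045 and 2734, but 5043 and 1332 with total counts, and at 7 d against 6 h 4984 and 4145, but 6124 and 3050. On the TPM scale 7 d against ex vivo gave 3886 and 6112 in place of 4821 and 4943, TGFβ against ex vivo 2592 and 5436 in place of 3920 and 3801, TGFβ against 7 d 969 and 1391 in place of 1325 and 902, and 7 d against 24 h 2614 and 3957 in place of 3769 and 2985. At the 6 genes, 18.6% of 7 d and 15.4% of ex vivo ATAC peaks lying in H3K27ac peaks had no counterpart, against 33.8% and 27.4% without that restriction. Within gene bodies alone it was 16.7% of ex vivo ATAC peaks. The whole lists were not restricted in these ways, so the restricted shares have no background beside them. CLEAR genes called higher at 7 d numbered 22 to 27 and lower 3 to 7 over the alternatives. Tfec rests on 78 counts ex vivo, and groups of 2 libraries give little check on spread.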
